A study of Homo sapiens with 12 samples.

Results

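RPL22 and RPL22L1 are paralogous genes for the large-subunit ribosomal protein eL22, and their transcripts were followed in HEK293T cells and in a methionine-independent derivative. The pair is 2 of the 23500 genes listed in the deposited table, and both were among the 17162 genes tested. They were chosen by their symbols with the values of the HEK293T cells known: RPL22L1 was picked because its decrease in these cells was among the largest, and RPL22 because it is its paralog. The changes of both genes in HEK293T cells, and every comparison that reuses those libraries, are therefore given as descriptions without a test. The test of the pair's response compares the R1 libraries, which the choice did not use, although earlier results of these data were known. In the edgeR fit its estimate of the spread also draws on the HEK293T libraries.

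HEK293T is an established line of human embryonic kidney origin that carries the SV40 large T antigen, and it is methionine-dependent. R1 is a resistant clone obtained from HEK293T cells that keeps growing when homocysteine replaces methionine, so R1 results describe that clone alone. Each line was grown for 12 h in medium with methionine (+Met) or in medium in which methionine was replaced by its precursor homocysteine (−Met+Hcy), and total RNA of bulk cultures was sequenced. There were 3 libraries in each of the 4 groups and 12 in all. The methods also list HEK293T cells whose PP2A catalytic subunit carries an HA tag, and the labels do not say whether the sequenced cells carried it. All media were based on DMEM with dialyzed serum, so every group shares the change from standard medium.

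Protein eL22 sits on the outside of the large ribosomal subunit and is not needed for protein synthesis as such. Cells without RPL22 can build ribosomes with the product of RPL22L1 in its place. RPL22 is known to hold RPL22L1 down, in part by binding to its precursor RNA and shifting its splicing, and both proteins also have roles away from the ribosome, in the splicing of MDM4 and in early embryonic patterning. RPL22 is often mutated or lost in tumours, where RPL22L1 is then usually high.

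In the GENCODE annotation of GRCh38, RPL22 (ENSG00000116251) lies on the minus strand at chr1:6185020-6209389 and RPL22L1 (ENSG00000163584) on the minus strand at chr3:170864875-170870208. Each canonical transcript has 4 exons. That of RPL22 is 2061 bases long with 384 coding bases, and that of RPL22L1 is 1902 bases long with 366 coding bases, so that most of either transcript is 3′ untranslated. RPL22 has 7 annotated transcripts, of which 6 are coding and 1 retains an intron. RPL22L1 has 6, of which 3 are coding, 2 are marked for nonsense-mediated decay and 1 retains an intron. The counts are sums over all of these, and a shift between coding and decay transcripts cannot be seen in them.

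The encoded proteins have 128 and 122 residues, and 90 of the 122 aligned residues are identical (73.8%). Of the 366 aligned coding bases, 245 are identical (66.9%), and the longest identical run is 17 bases. By default kallisto uses stretches of 31 bases to place reads. No such stretch is shared between any transcripts of the paralogs in the same direction, so reads of RPL22 and RPL22L1 could be told apart there. Reverse-strand matches were not searched, here or for the other genes below. Other genes share more with RPL22: 346 of the 2031 stretches of its canonical transcript (17.0%) occur in 18 other genes, 17 of them RPL22 pseudogenes and the last a coding gene without a symbol. Only the last is in the deposited table, where it is listed at 0 in every library, so reads from an RPL22 pseudogene could have been added to RPL22. For RPL22L1, 93 of 1872 stretches (4.97%) occur elsewhere.

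The promoters are shown because the genes encode paralogous ribosomal proteins but had different levels after the change of medium. They are the 100 bases before the RefSeq transcription start, 5′ to 3′ along the gene, in GRCh38.p14, at chr1:6199596-6199695 for RPL22 and chr3:170870196-170870295 for RPL22L1. The RPL22 window lies inside the GENCODE span of the gene, which ends at 6209389, so the RefSeq start is not the outermost one annotated. Capitals mark the letters TATAAA, which were searched on both strands.
RPL22 promoter: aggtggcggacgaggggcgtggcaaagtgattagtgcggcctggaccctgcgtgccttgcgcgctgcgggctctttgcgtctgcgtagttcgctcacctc
RPL22L1 promoter: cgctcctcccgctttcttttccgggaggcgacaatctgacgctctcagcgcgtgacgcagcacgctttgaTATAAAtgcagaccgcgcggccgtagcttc

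TATAAA starts 30 bases before the start of RPL22L1, and it is in neither strand of the RPL22 window. Of the 35116 windows of the same length in the RefSeq table, 1753 hold these letters on either strand (4.99%), as do 5 of 63 for the cytosolic ribosomal protein genes with an entry (7.94%). Both windows are rich in G and C, with 66.0% in RPL22 and 60.0% in RPL22L1, and hold 11 and 13 CpG. These matches describe the sequence only.

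Total counts were 12664158 to 18771349 per library. TMM scaling factors were 0.83 to 0.88 in HEK293T +Met and 0.93 to 1.12 elsewhere. R1 −Met+Hcy replicate 3 stood apart: against the other libraries of its group its counts fell with the GC content of the transcript (Spearman's rho −0.74 across genes). This rho was −0.34 for R1 +Met replicate 2 and −0.29 to 0.73 for the other 10 libraries. The transcripts of RPL22 (42.0% GC) and RPL22L1 (39.9%) have fewer G and C bases than most, since 27.8% and 17.7% of the expressed genes lie below them. As to the labels, the kidney and neuronal markers of HEK293T were present (EYA1 at 3.93 and NEFL at 49.0 CPM in HEK293T +Met), although PAX2 was near 0 in HEK293T +Met (0.46 CPM) and at 5.64 CPM in R1 +Met. PTPRC of blood cells and ALB of liver were at or near 0. Of the fibroblast markers, COL1A1 was at 9.27 CPM in HEK293T +Met and 31.6 in R1 +Met (log2 fold change 1.40, adjusted p = 0.028, edgeR), and DCN at 0.91 and 1.80 CPM. Their part in the differences between lines was not tested.

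RPL22 and RPL22L1 had like counts in HEK293T cells in +Met, and RPL22L1 alone was far lower in −Met+Hcy. Levels are given as CPM, the count scaled to the library total. RPL22L1 was at 437, 349 and 457 CPM in the 3 +Met libraries, a mean of 415 ± 57.5 (SD, n = 3). In −Met+Hcy it was at 60.9, 68.5 and 92.7 CPM, a mean of 74.1 ± 16.6 (SD, n = 3). All 3 −Met+Hcy libraries were far below all 3 +Met libraries, and the mean was 17.9% of that in +Met. RPL22 was at 425, 401 and 416 CPM in +Met, a mean of 414 ± 11.8 (SD, n = 3). In −Met+Hcy it was at 369, 403 and 413 CPM, a mean of 395 ± 23.0 (SD, n = 3). The ranges of RPL22 overlapped.

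On the TMM scale, the fitted log2 fold change of −Met+Hcy against +Met in HEK293T cells was −2.77 for RPL22L1 (SE 0.49), or 6.84-fold lower. For RPL22 it was −0.36 (SE 0.23). RPL22L1 thus had the 2nd lowest value of 11641 expressed genes (mean log2 CPM over 2), whereas RPL22 was 2980th from the lowest. With counts scaled by library totals alone the values were −2.48 and −0.07. That scaling moves the median of all genes tested from 0.03 to 0.33, so relative to the median RPL22 lay about equally far below in both. RNA from bulk cultures cannot tell fewer cells with a transcript from less of it per cell.

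**Figure D1:**
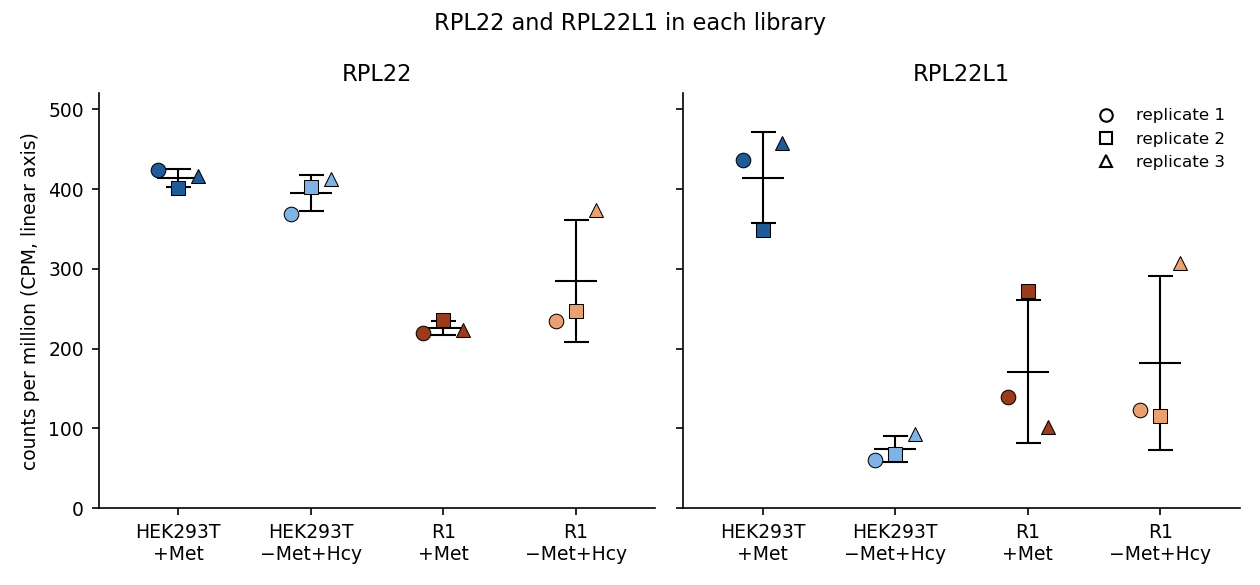
Levels of RPL22 (left) and RPL22L1 (right) in CPM of the library total on a linear axis, for the 4 groups. Symbols are the 3 libraries of a group, the long bar is the mean and the short bars 1 SD. RPL22 is at 369 to 425 CPM in HEK293T and at 219 to 374 CPM in R1, while RPL22L1 is highest in HEK293T +Met (349 to 457 CPM) and lowest in HEK293T −Met+Hcy (60.9 to 92.7 CPM).

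In R1 cells neither paralog passed the test between media. RPL22L1 was at 139, 272 and 101 CPM in R1 +Met (171 ± 89.8, SD, n = 3) and at 123, 116 and 308 CPM in R1 −Met+Hcy (182 ± 109, SD, n = 3). The groups overlapped almost completely, with a high library in each: replicate 2 of +Met and replicate 3 of −Met+Hcy, which are also the R1 libraries with the lowest rho with GC content. RPL22 was at 219, 236 and 224 CPM in R1 +Met (226 ± 8.76, SD, n = 3) and at 235, 247 and 374 CPM in R1 −Met+Hcy (285 ± 76.8, SD, n = 3). Without replicate 3, R1 −Met+Hcy averaged 241 CPM for RPL22 and 119 CPM for RPL22L1.

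The log2 fold change in R1 was 0.41 for RPL22 (SE 0.23, 95% interval −0.10 to 0.92, adjusted p = 0.638, edgeR) and 0.18 for RPL22L1 (SE 0.46, 95% interval −0.82 to 1.19, adjusted p = 0.888) (edgeR, quasi-likelihood test, with all genes in the Benjamini-Hochberg adjustment). Here 0.00583% of all genes tested were called higher and 0% called lower, and at an unadjusted p under 0.05 the shares were 5.68% and 2.11%. DESeq2 on all 12 libraries called 33 genes higher and 7 lower in R1, and on the 6 R1 libraries 3 and 1. Neither paralog was among them. The paper, which used DESeq2, reports more genes changed in R1 than these fits. With edgeR on the 6 R1 libraries alone, RPL22 was at 0.40 (SE 0.31, adjusted p = 0.952) and RPL22L1 at 0.17 (SE 0.57, adjusted p = 0.963). Without R1 −Met+Hcy replicate 3 the values were 0.04 for RPL22 and −0.58 for RPL22L1, and without R1 +Met replicate 3 that of RPL22L1 was −0.09. When the trend with GC content was taken out of every library, RPL22L1 was at −0.15. The R1 libraries therefore fix no direction for RPL22L1.

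The ratio of the paralogs within a library needs no scaling between libraries. In HEK293T +Met, RPL22L1 gave 50.7, 46.5 and 52.4% of the counts of the pair. In HEK293T −Met+Hcy it gave 14.2, 14.5 and 18.3%. The log2 ratio of RPL22L1 to RPL22 went from −0.01 ± 0.17 to −2.44 ± 0.24 (SD, n = 3 each), 5.39-fold lower, with no overlap. In R1 +Met the share of RPL22L1 was 38.8, 53.6 and 31.2%, and in R1 −Met+Hcy it was 34.3, 31.9 and 45.2%. The log2 ratio was −0.53 ± 0.68 in R1 +Met and −0.77 ± 0.43 in R1 −Met+Hcy (SD, n = 3 each), a difference of −0.24 (two-sided exact permutation test, p = 0.7, where 3 against 3 libraries cannot go below 0.1). Without R1 +Met replicate 2 this difference was 0.13.

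**Figure D2:**
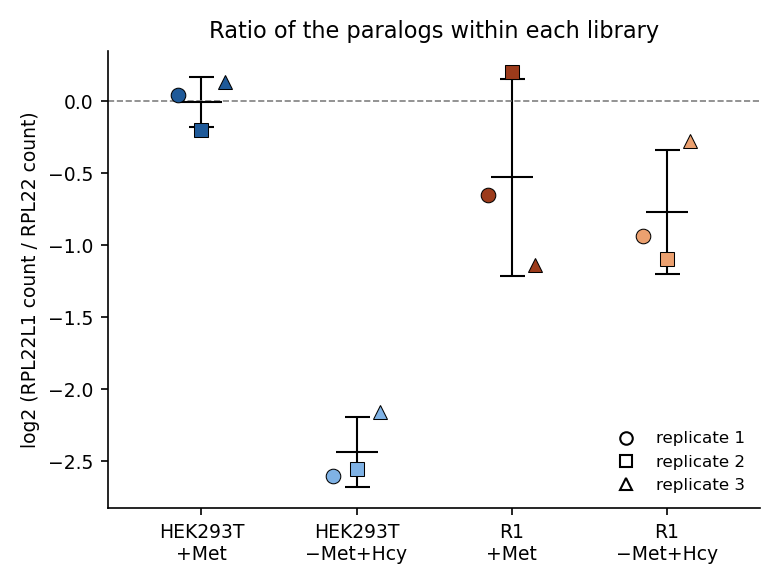
Log2 of the RPL22L1 count over the RPL22 count in each library, by group, with the mean (long bar) and 1 SD (short bars), and the dashed line at equal counts. HEK293T −Met+Hcy lies between −2.60 and −2.16, below the other 9 libraries, which lie between −1.14 and 0.21.

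Per kilobase of canonical transcript, which allows levels of different genes to be compared, RPL22L1 stood at 218 ± 30.2 CPM per kb and RPL22 at 201 ± 5.74 in HEK293T +Met (SD, n = 3). In HEK293T −Met+Hcy the levels were 38.9 ± 8.73 and 192 ± 11.2. In R1 +Met they were 89.9 ± 47.2 for RPL22L1 and 110 ± 4.25 for RPL22, and in R1 −Met+Hcy 95.7 ± 57.3 and 138 ± 37.3. Both paralogs were among the lowest ribosomal protein genes throughout. The median of the 79 other cytosolic ribosomal protein genes was 1998 CPM per kb in HEK293T +Met, where only 4 of them lay below either paralog. In HEK293T −Met+Hcy RPL22L1 lay below all 79. The long 3′ untranslated parts of both transcripts lower these levels.

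Between the lines, both paralogs were lower in R1 than in HEK293T cells in +Met. The ranges did not overlap for RPL22 (219 to 236 against 401 to 425 CPM) or for RPL22L1 (101 to 272 against 349 to 457 CPM). The log2 fold change of R1 against HEK293T was −1.22 (SE 0.24) for RPL22 and −1.62 (SE 0.47) for RPL22L1, given without a test. In this comparison 4.48% of all genes tested were called lower and 5.69% higher. RPL22 was at −0.87 when counts were scaled by library totals, where the median of all genes was 0.37.

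In −Met+Hcy the order of RPL22L1 was turned around. All 3 R1 libraries (116 to 308 CPM) were above all 3 HEK293T libraries (60.9 to 92.7 CPM), with a log2 fold change of 1.34 (SE 0.47). Without R1 −Met+Hcy replicate 3 it was 0.57. RPL22 was at −0.46 (SE 0.23), and its ranges overlapped through R1 −Met+Hcy replicate 3 (374 CPM). Without that library it was at −0.82, with 235 and 247 CPM in R1 against 369 to 413 CPM in HEK293T. Here 7.2% of all genes tested were called higher in R1 and 6.76% lower. The response of R1 minus that of HEK293T was 2.96 (SE 0.67) for RPL22L1, the 11638th of 11641 expressed genes from the lowest, and 0.77 (SE 0.33) for RPL22. Without R1 −Met+Hcy replicate 3 these were 2.19 and 0.40.

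Ordered by mean level, RPL22 ran from HEK293T +Met and HEK293T −Met+Hcy to R1 −Met+Hcy and R1 +Met, and each neighbouring pair of groups overlapped. RPL22L1 ran from HEK293T +Met to R1 −Met+Hcy, R1 +Met and HEK293T −Met+Hcy, where only the R1 groups overlapped each other. RPL22L1 also varied more within groups than RPL22 did. Its SD was 13.9, 22.4, 52.5 and 59.9% of the mean in HEK293T +Met, HEK293T −Met+Hcy, R1 +Met and R1 −Met+Hcy, against 2.86, 5.83, 3.87 and 26.9% for RPL22.

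The other cytosolic ribosomal protein genes, a list of 79 without the paralogs, were mostly lower in HEK293T cells in −Met+Hcy. Of these, 17 passed as lower (21.5%) and 0 as higher, where 2.78% and 4.25% of all genes tested were called lower and higher. With an absolute log2 fold change over 1 as well, 14 passed as lower (17.7%), against 1.59% of all genes lower and 3.04% higher. All 17 encode proteins of the large subunit (17 of 46, from −1.99 to −0.92), and 0 of 33 small-subunit genes passed (smallest adjusted p = 0.060, for FAU, from edgeR with Benjamini-Hochberg adjustment). On the 6 HEK293T libraries alone, 59 (edgeR) and 66 (DESeq2) of the 79 passed as lower, more than the 46 of the large subunit. Small-subunit genes therefore passed as well in those fits, and 32 of the 33 were below 0 in the fit of the 12 libraries. Over all genes, 2527 (edgeR) and 2797 (DESeq2) passed as lower on the 6 libraries, against 477 in the fit of the 12. Whether the subunits differ was not tested. The median log2 fold change was −0.72 over the 79 genes, with 78 below 0, against 0.03 over all genes tested. It was −0.90 for the large and −0.67 for the small subunit.

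The largest falls that passed were in RPL17, which lines the exit tunnel of the ribosome, from 1813 ± 280 to 557 ± 133 CPM, in RPL14 from 1085 ± 134 to 396 ± 44.4 CPM, and in RPL7 from 1906 ± 64.3 to 790 ± 54.9 CPM (SD, n = 3 each). Their log2 fold changes were −1.99, −1.75 and −1.56. RPL17 overlaps the readthrough gene RPL17-C18orf32, so the split of reads between them is uncertain. None reached the −2.77 of RPL22L1, which was the lowest of the 81 genes, while RPL22 was the 71st from the lowest, in the upper part of the list. The highest values, none passing, were those of RPS2 (0.02), RPSA (0.00) and RPLP1 (−0.08). The count of 17 depended on the fit: it was 59 with edgeR and 66 with DESeq2 on the 6 HEK293T libraries, 29 with DESeq2 on all 12, 40 without R1 −Met+Hcy replicate 3, 10 without R1 +Met replicate 1 and 3 to 6 without any one HEK293T library. In each of these fits 0 passed as higher. The calls over all genes moved too: 477 were lower in the fit of the 12 libraries, 2527 and 2797 with edgeR and DESeq2 on the 6, 947 with DESeq2 on all 12, 2138 without R1 −Met+Hcy replicate 3, 296 without R1 +Met replicate 1 and 73 to 190 when a HEK293T library was left out.

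In R1 cells 0 of the 79 passed in either direction (3 higher and 1 lower at an unadjusted p under 0.05), also with DESeq2. The median log2 fold change was 0.09, and RPL22L1 and RPL22 were 48th and 68th of 81 from the lowest. The largest values were 1.80 for RPL36A, 1.08 for RPS20 and 1.07 for RPL38, and the lowest included −0.61 for RPL10 and −0.56 for RPL18, none passing. In R1 −Met+Hcy replicate 3, which stood apart, RPL36A had 59673 counts against 6421 and 6060 in the other libraries of its group. RPS20 and RPL38 were likewise highest there (42146 against 10581 and 7646, and 26057 against 6203 and 4726). RPL10 and RPL18 were lowest there (3299 against 12678 and 12650, and 3659 against 7458 and 7511). R1 was lower than HEK293T in +Met for 62 of 79 genes (78.5%, median −1.49) and higher for 0. Of all genes tested, 4.48% were called lower and 5.69% higher there. RPL22L1 and RPL22 were 29th and 54th of 81 from the lowest in +Met. In −Met+Hcy 17 of 79 were lower in R1 (21.5%, median −0.54) and 0 higher, against 6.76% and 7.2% of all genes. The value of RPL22L1 in that comparison was above those of all 79.

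**Figure D3:**
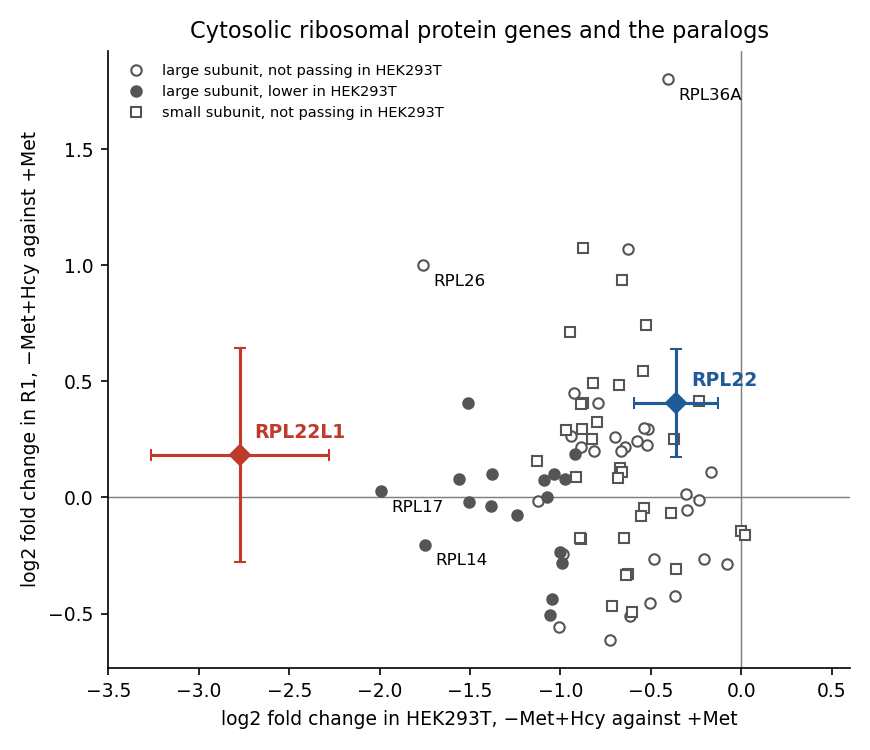
Log2 fold change of −Met+Hcy against +Met in HEK293T (horizontal) and in R1 cells (vertical) for the 79 cytosolic ribosomal protein genes, with circles for the large and squares for the small subunit, filled where the gene passed in HEK293T. Diamonds with bars of 1 SE are the paralogs: RPL22L1 lies left of all other genes at −2.77, and RPL22 at −0.36 lies inside the cloud, 71st of 81 from the lowest.

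Other ribosomal protein genes with a paralog were read from the same fit. RPL7L1, which acts in ribosome assembly, had a log2 fold change of 0.27 in HEK293T cells (172 ± 8.85 to 253 ± 11.1 CPM, adjusted p = 0.327), beside the fall of RPL7. RPL39L, a paralog of RPL39 best known from the testis, fell by 0.98 on the log2 scale, from 16.7 ± 1.88 to 10.3 ± 3.12 CPM (adjusted p = 0.045), beside −0.54 for RPL39. RPS27L had −1.11 (60.9 ± 3.87 to 34.5 ± 7.63 CPM, adjusted p = 0.053) beside −0.37 for RPS27. RPL26 and RPL26L1 had −1.76 and −0.57, RPL36A and RPL36AL −0.41 and −0.52, and none of these 4 passed. RPL3 passed at −1.06, and its muscle paralog RPL3L was at or below 0.24 CPM in every group mean. RPL10L was too low to be tested. In all, 3 of 13 tested genes of these 7 pairs passed as lower in HEK293T (2.78% of all genes tested). Of these, RPL3 and RPL7 were already counted among the 17 above, and RPL39L was the only added paralog. In R1 0 passed, where nearly no gene did in this fit. All adjusted p-values here are from the edgeR test over all genes.

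**Figure D4:**
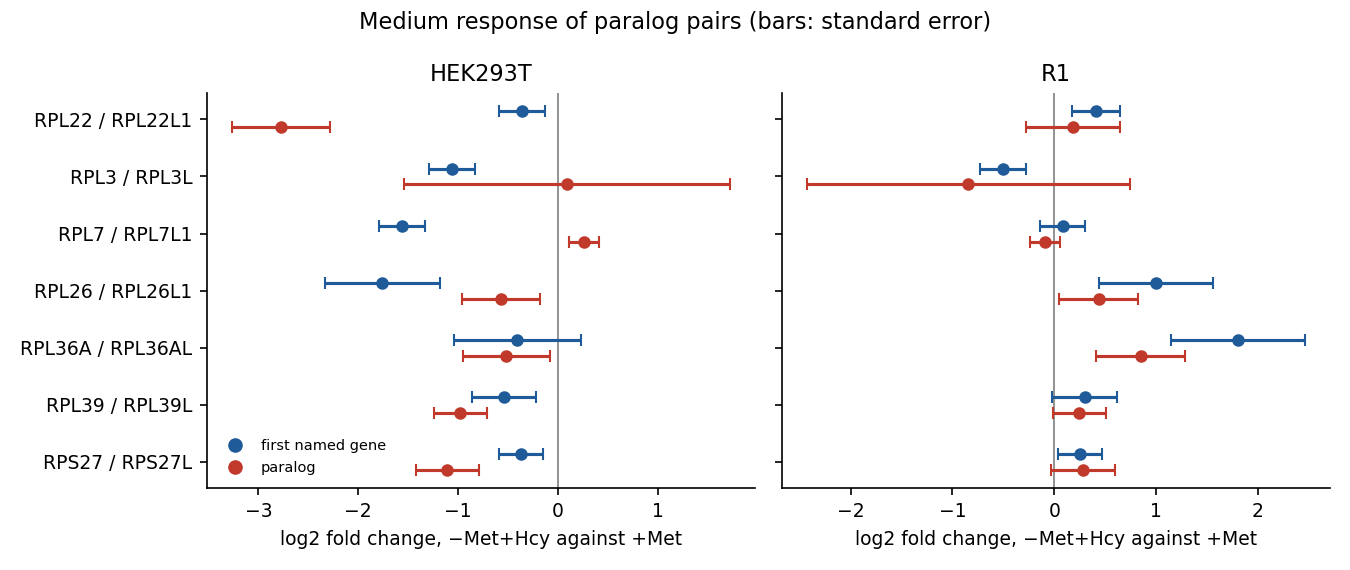
Log2 fold change of −Met+Hcy against +Met in HEK293T (left) and R1 cells (right) for 7 ribosomal protein genes (blue) and their paralogs (red), with bars of 1 SE. RPL22L1 at −2.77 is the lowest of the 14 in HEK293T, and in R1 its bar spans 0.

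Of 8 genes tied to the paralogs by earlier work, 2 fell in HEK293T cells and 0 rose. Of all genes tested, 2.78% were called lower and 4.25% higher there. UBAP2L, a stress granule protein, fell from 330 ± 45.6 to 225 ± 33.0 CPM (log2 fold change −0.85, adjusted p = 0.042, edgeR). MDM4, whose splicing follows RPL22, had −0.32 and was at 22.0 ± 6.35 and 21.5 ± 2.98 CPM of the library total, and these counts do not show its splicing. MDM2, a ubiquitin ligase, had 0.27. SMAD1 and SMAD2, whose messages are handled by the paralogs in embryos, had 0.71 (adjusted p = 0.055) and −0.19. LIN28B and ALOX12 had −0.15 and −0.85. In R1 0 of the 8 passed between media, where 0.00583% of all genes tested were called higher and 0% lower. In −Met+Hcy 2 of the 8 were higher in R1 than in HEK293T (7.2% of all genes) and 0 lower (6.76%). UBAP2L was among them (0.97, adjusted p = 0.014). In +Met 1 of the 8, LIN28B, was lower in R1 (−0.86, adjusted p = 0.022) and 0 higher, against 4.48% and 5.69% of all genes. All of these come from the same edgeR test.

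The share of genes next to the paralogs that passed was near that of all genes tested (4.25% higher and 2.78% lower in HEK293T). Of the 5 nearest tested coding genes on either side of RPL22L1, only SKIL, a SMAD inhibitor, passed in HEK293T cells. It rose from 28.4 ± 8.82 to 64.9 ± 4.12 CPM (log2 fold change 0.91, adjusted p = 0.035 from edgeR). The closest, EIF5A2, has its near end 18210 bases away and had −0.72 (adjusted p = 0.415). PLD1 was higher in R1 than in HEK293T in both media (2.29 and 2.08). Around RPL22, 0 of 10 passed in either medium comparison, and ACOT7 came closest in HEK293T with −0.95 (adjusted p = 0.051, edgeR). RNF207 overlaps the GENCODE span of RPL22 on the opposite strand, upstream of the RefSeq start used for the promoter. It was at 10.2 CPM in HEK293T +Met, and the sources used here do not say whether counting used strand.

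The genes with the profile nearest to each paralog were ranked by the distance between centred log2 CPM values over the 12 libraries. For RPL22L1 these were EIF3E, RPL17, HSPE1, FABP5 and RPL26, at distances of 1.38 to 1.71 and with Pearson's r of 0.96, 0.93, 0.99, 0.92 and 0.90. EIF3E encodes a subunit of a translation initiation factor and HSPE1 a mitochondrial co-chaperone. For RPL22 they were TCEAL9, LTV1, CYP2J2, RPS27 and NOA1, at distances of 0.33 to 0.50 and with r of 0.96 to 0.99. LTV1 acts in the assembly of the small subunit. RPL22 itself was 3.37 away from RPL22L1 (r = 0.51), the 1415th nearest gene. Without R1 −Met+Hcy replicate 3, the nearest to RPL22L1 were the readthrough RPL17-C18orf32, PSMA5, EIF3E, RPL17 and RPL14, and only TCEAL9 stayed among the 5 nearest to RPL22. The libraries of a group share its condition, so these r describe the 4 groups more than 12 separate points.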

How the data were processed

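RNA of HEK293T and R1 cells was sequenced by the authors in 12 libraries. The deposited values are estimated counts: per the paper's methods and the submitters' processing notes, the authors quantified reads with kallisto 0.48.0 against GRCh38, added estimated counts per Ensembl gene and converted them to whole numbers. Whether libraries were stranded is not given in the sources used here. R1 samples are titled R1 but list HEK293T as their cell line, and they were grouped by title. Nothing states separate cultures, so p-values measure the spread between libraries, which may be technical. No batch is named. Libraries of a group differed by 7.13 to 236 chi-square per gene, well above counting noise, so none was a duplicate.

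CPM were counts over library totals. Genes with a summed count under 10 were left out (6338 of 23500). The rest were fitted in R 4.3.3 with edgeR 4.0.16 (TMM, quasi-likelihood, a mean for each of the 4 groups, 8 residual degrees of freedom), adjusted by Benjamini-Hochberg over all tested genes, at a threshold of 0.05. No column of other samples was present. The fit was tested on simulated data. Log2 CPM used a prior count of 2. DESeq2 1.42.0, other scalings and filters, GC correction (loess span 0.3), the replicate block and leaving out libraries were alternatives. Exact permutation tests used SciPy 1.17.1. Shared stretches and gene models come from GENCODE 44, and promoters from RefSeq.

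The paralogs and all lists were chosen with earlier results of these data known, and the paralogs on the HEK293T medium comparison. Named were the paralogs, the 3 largest changes in each direction of the ribosomal list in each medium comparison (passing genes where at least 3 passed), the 7 other paralog pairs, 8 genes tied to the paralogs in the literature, the 5 nearest tested coding genes on each side and the 5 nearest profiles. FAU was named after its value was seen. Some named genes are not reported here.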

Additional observations from a re-analysis of the deposited data

How the results depend on the processing

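For RPL22L1 in HEK293T cells the log2 fold change stayed between −2.82 and −2.48 under 11 alternatives and between −2.99 and −2.62 without each library in turn. RPL22 moved with the scaling: by library totals it was −0.067 in HEK293T, −0.87 for R1 against HEK293T in +Met and 0.40 for the difference of responses. With the GC trend removed, RPL22 was −1.10 for R1 against HEK293T in +Met, and RPL22L1 turned to −0.15 in R1. An alternative chosen after seeing the data removed the GC trend and left out R1 −Met+Hcy replicate 3. It gave −0.57 for RPL22L1 in R1, −1.09 for RPL22 in +Met between lines, and 0.44 and 2.25 for the differences of responses of RPL22 and RPL22L1. Leaving out each library, RPL22L1 ranged from −0.58 to 0.73 in R1 and from 0.57 to 1.62 between lines in −Met+Hcy. The difference of responses ranged from 0.40 to 0.93 for RPL22 and from 2.19 to 3.50 for RPL22L1. The change of the log2 ratio in R1 ranged from −0.55 to 0.13. The cause of these shifts was not tested.

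The count of ribosomal protein genes lower in HEK293T cells, 17, was 28 with the GC trend removed, 45 with that and without R1 −Met+Hcy replicate 3, 59 with edgeR and 66 with DESeq2 on 6 libraries, 29 with DESeq2 on 12, and 3 to 40 without each library. Over all genes the lower calls went from 477 to 1173, 2362, 2527, 2797 and 947, and to 73 to 2138 without each library.

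Same-numbered deviations from the group means correlated at 0.00, −0.07 and 0.48 in HEK293T and at 0.07, −0.47 and −0.09 in R1. Differently numbered ones ran from −0.52 to 0.45 in HEK293T and from −0.31 to 0.49 in R1. The 3 deviations of a group are not independent, so these r cannot decide whether replicate numbers pair the libraries. With the replicate block, 7 ribosomal protein genes and 214 of all genes passed as lower in HEK293T. The change of the log2 ratio between same-numbered libraries was −2.43 ± 0.19 in HEK293T and −0.24 ± 1.08 in R1 (SD, n = 3). No other call on the paralogs changed.

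With 3 libraries a group, the precision in R1 is low: the 95% intervals run from −0.10 to 0.92 for RPL22 and from −0.82 to 1.19 for RPL22L1 on the log2 scale.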
